A study of Drosophila melanogaster with 2 samples.

Results

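The genes described here are the 51 protein-coding genes of the Ensembl annotation whose symbol begins with eIF or eEF followed by a digit, out of 13945 protein-coding genes on the 6 chromosome arms. They comprise 44 eukaryotic initiation factor genes and 7 elongation factor genes. The data are peak lists from chromatin immunoprecipitation sequencing of whole Drosophila melanogaster embryos of mixed sex, collected 0 to 24 hours old. Every embryo came from a stable transgenic strain, E(spl)m-beta-GFP, in which a C-terminal GFP tag marks E(spl)mβ-HLH. That protein is a DNA-binding repressor of the bHLH class whose gene is switched on by Notch. There was a single group, with biological replicates 1 and 3, and no second genotype, stage or treatment, so the values are levels within these lists. Whether the replicates came from separate embryo collections is not stated beyond that label. The labels conflict: the description line of each sample names input control material, but the assay is given as transcription factor ChIP-seq with an antibody to E(spl)mβ-HLH. All cells of the embryo contributed, so a peak cannot be assigned to a tissue.

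Initiation factors bring the small ribosomal subunit, the initiator tRNA and the capped mRNA together at the start codon, and elongation factors deliver each further aminoacyl-tRNA and move the ribosome along. Most of these proteins are needed in every growing cell. Several factors also exist in duplicated copies, some of which, such as eIF4E3 and eIF4G2, are known for roles in spermatogenesis. Many fly genes for ribosomal proteins and other parts of the translation apparatus start within a run of pyrimidines called the TCT initiator, and many housekeeping promoters carry TATCGATA, the word bound by the factor DREF.

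The authors' reproducible list kept the 5744 peaks that passed their threshold on the irreproducible discovery rate (IDR), a measure of agreement between replicates. Their pooled list, with weaker peaks and background included, held 30000. A peak summit within 1 kb of any annotated transcription start site (TSS) of a gene was counted for that gene. Of the 51 genes, 21 had a reproducible summit, or 41.2% (95% Wilson interval 28.8 to 54.8%), where 27.9% of all protein-coding genes had one. Another 11 had a summit only in the pooled list, which brought the number to 32, or 62.7% (49.0 to 74.7%), against a background of 48.3%. The remaining 19 had none in either list. The pooled signal of the 21 genes had a median of 355.3 (quartiles 265.2 and 946.4), and that of the 3867 other genes with a reproducible summit was 329.6 (quartiles 248.7 and 496.9). Both medians lay close together, and the upper quartile was higher for the translation factors. Of the 21, 4 had a signal above 1000 (19.0%), compared with 7.24% of the other genes. For eIF2Bbeta and eIF4EHP, among these 4, another gene started nearer to the summit, as also occurs among the other genes. No test of these shares was made, since genes are not replicates, and the intervals cover counting error only. Depth per library is unknown because the lists give no read counts.

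**Figure D1:**
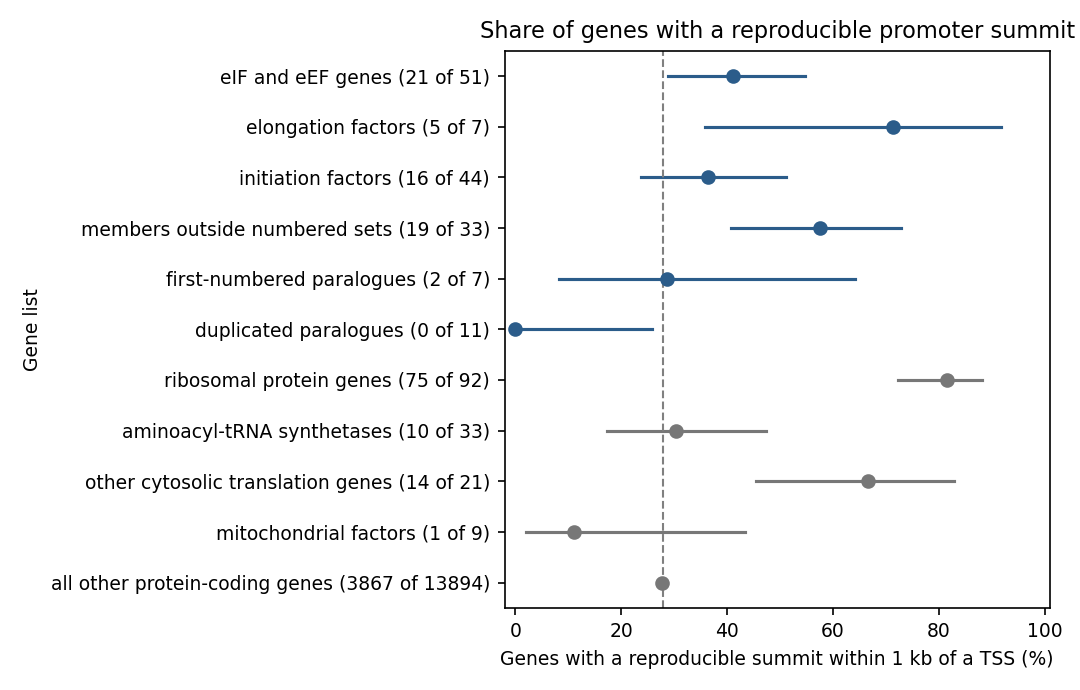
Percentage of genes in each list (rows) with a reproducible summit within 1 kb of a TSS; points are shares, lines are 95% Wilson intervals, blue marks lists of eIF and eEF genes, grey marks other lists, and the dashed line is the 27.9% of all protein-coding genes. Elongation factors stand at 71.4%, duplicated paralogues (higher-numbered copies) at 0%, and all eIF and eEF genes at 41.2%.

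The sequence at the 2 strongest summits is shown because each lies upstream of the factor gene and nearer to the start of another gene. Each line gives dm6 coordinates and the strand of the factor gene, from the RefSeq copy of the assembly, with the summit base in capitals.
eIF2Bbeta chrX:2703858-2703918 plus strand: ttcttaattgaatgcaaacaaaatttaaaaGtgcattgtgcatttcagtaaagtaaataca
eIF4EHP chr3R:24109152-24109212 minus strand: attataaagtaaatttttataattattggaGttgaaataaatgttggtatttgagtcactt

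Words known from housekeeping promoters occurred at some of the others. TATCGATA (either strand, within 100 bp of the summit) was present at 4 of the 21 factor summits, those of eEF1gamma, eIF1, eIF3a and eIF6, while 6.93% of the 2799 distinct reproducible summits at promoters had it. Of these, 3 are printed with the word in capitals.
eEF1gamma chr3R:29220116-29220153 plus strand: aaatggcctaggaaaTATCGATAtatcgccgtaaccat
eIF1 chr3L:3223030-3223067 plus strand: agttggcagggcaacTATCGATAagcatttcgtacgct
eIF3a chr3R:4433911-4433948 minus strand: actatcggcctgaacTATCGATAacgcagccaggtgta
The word began 41 bp upstream of the nearest eEF1gamma TSS and 38 bp upstream of the eIF3a TSS. At eIF1 it lay 296 bp upstream of the eIF1 TSS, and 39 bp from the summit.

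CACGTG and CACGCG, words that Hairy and E(spl) proteins are known to bind, were present within 100 bp of 2 of the 21 summits, and 11.7% of all reproducible promoter summits had either (3.79% and 8.36% for each word alone). CACGTG started 88 bp upstream of the eEF2 summit and 37 bp upstream of the nearest TSS. CACGCG started 22 bp upstream of the eIF4H1 summit, which lay in an intron, and 197 bp downstream of a TSS. These are shown with the word in capitals.
eEF2 chr2L:21682185-21682212 minus strand: gatgaatctgtCACGTGaactactatcg
eIF4H1 chrX:16448851-16448878 plus strand: gtgtaataatgCACGCGgttttttgggg
The N-box form CACNAG, also known as a target of this family, lay at 8 of the 21 summits (38.1%; background 24.9%). These were the summits of eIF2Bdelta, eIF2beta, eIF3a, eIF3b, eIF4A, eIF4H1, eIF5B and eIF6. The words for M1BP (GGTCACACT) and GAGA factor (GAGAGAG) were found at 0 of the 21, where 3.39% and 5.64% of all reproducible promoter summits had them. CAGCTG lay at 1, eIF3h (background 14.1%). All words were searched on both strands, and matches can share bases, as CACCAG and CAGCTG can.

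Elongation factor genes had a reproducible summit in 5 of 7 cases (71.4%, 35.9 to 91.8%), and initiation factor genes in 16 of 44 (36.4%, 23.8 to 51.1%). The share of all protein-coding genes, 27.9%, lay within the interval of the initiation factors and below that of the elongation factors. The intervals of both classes overlap, and the difference was not tested. Median pooled signal was 617.7 at the 5 elongation factors and 329.7 at the 16 initiation factors. All 5 elongation factor summits lay within 100 bp of a TSS, with a median distance of 16 bp, whereas 7 of the 16 initiation factor summits did, with a median of 104 bp. Among other genes with a reproducible summit, 40.3% had it within 100 bp. Each of the 5 elongation factors was nearer to its strongest summit than any other protein-coding gene was.

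**Figure D2:**
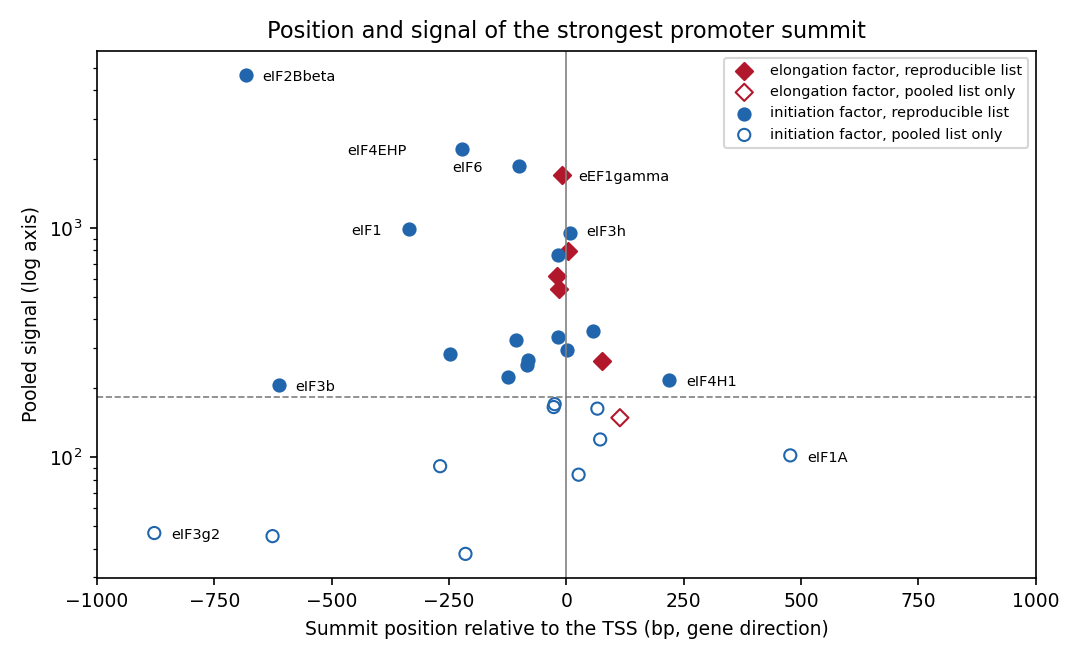
Pooled signal of the strongest promoter summit (vertical, log axis) against its position relative to the nearest TSS of the gene in bp (horizontal, negative is upstream), for 32 eIF and eEF genes; the dashed line marks the lowest signal in the reproducible list, 183.6. Filled elongation factor symbols sit between -19 and 75 bp, and the strongest initiation factor summit lies at -683 bp.

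The eEF1 complex carries aminoacyl-tRNA to the ribosome. The highest signal among its genes was at eEF1gamma, a subunit of the exchange factor that recharges eEF1alpha with GTP. Its peak at chr3R:29219884-29220401 had a pooled signal of 1701, with 1060 in replicate 1 and 640.1 in replicate 3, and ranked 70, 55 and 107 of 30000 in these lists. The summit lay 10 bp upstream of a TSS, and no other protein-coding gene started within 1 kb of it. eEF1alpha1, the tRNA carrier itself, had 617.7 in the pooled list, 389.4 in replicate 1 and 232.5 in replicate 3. This gene has 4 annotated TSS positions and a second reproducible summit, of signal 332.5, that lay 130 bp upstream of another of them. That second summit was outside the gene and nearer to the start of ERp60, which lies 156 bp upstream on the opposite strand. It cannot be given to eEF1alpha1 alone. The exchange factor gene eEF1beta was weaker, with 263.4, 140.2 and 124.8. eEF1delta, a related subunit, was not in the reproducible list. Its pooled signal was 148.9 at 114 bp downstream of the TSS, with 65.77 in replicate 1 and 83.55 in replicate 3. In all, 3 of the 5 eEF1 genes had a reproducible summit.

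The remaining elongation factors were both in the reproducible list. eEF2, the GTPase that moves the ribosome by a codon, had a pooled signal of 794.1, with 477.8 in replicate 1 and 328.6 in replicate 3. The summit lay 3 bp downstream of a TSS, in the peak at chr2L:21681836-21682338. eEF5, which carries the hypusine residue and helps peptide bonds form at difficult sequences, had 542.4, 316.3 and 231.7 with a summit 16 bp upstream of a TSS. eEF1alpha2, the second tRNA carrier gene, had no listed summit within 1 kb in any list. The nearest pooled summit lay 4601 bp away.

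**Figure D3:**
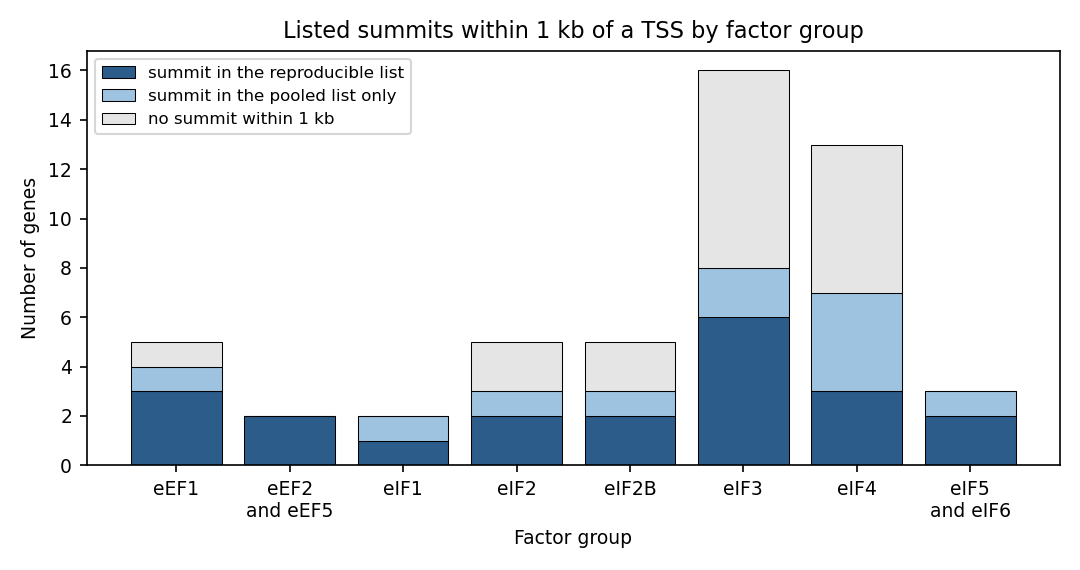
Number of genes (vertical axis) in each factor group (horizontal axis), split into genes with a summit within 1 kb of a TSS in the reproducible list, in the pooled list only, or in neither. The eIF3 group has 6, 2 and 8 genes in these classes, and the eIF4 group 3, 4 and 6.

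Factors of the first steps, which select the start codon and load the initiator tRNA, were divided. eIF1, a guardian of start codon choice, had a pooled signal of 989.1, with 593.1 in replicate 1 and 417.4 in replicate 3. That summit lay 335 bp upstream of the eIF1 TSS and 46 bp from the TSS of RpL28. A weaker reproducible summit in the same interval (462.0) lay 127 bp upstream of eIF1. Its partner eIF1A had a weak pooled summit only, of signal 102.0, with 60.48 in replicate 1 and 76.77 in replicate 3. This summit lay 477 bp downstream of a TSS. The strongest eIF1A summit in replicate 3 was another, of 92.47 at rank 5115, 59 bp upstream of a TSS. eIF2 is the GTPase complex that carries the initiator tRNA. Its subunit gene eIF2beta had 281.2, 175.3 and 113.5 in the pooled, replicate 1 and replicate 3 lists. eIF2alpha, the subunit phosphorylated under stress, had 165.7, 104.7 and 57.99 and stayed just below the lowest reproducible signal of 183.6. eIF2gamma had no pooled summit. eIF2D, a factor of non-canonical initiation, had 265.2, 167.3 and 96.66.

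The largest signal of the 51 genes was linked to eIF2Bbeta, a subunit of the exchange factor that recycles eIF2. The peak at chrX:2703625-2704136 had 4660 in the pooled list, 2620 in replicate 1 and 2056 in replicate 3, and ranked 4, 3 and 4. Its summit lay 683 bp upstream of the eIF2Bbeta TSS and 36 bp from the TSS of Ugalt, a UDP-galactose transporter gene. The peak therefore belongs to eIF2Bbeta only by the window of 1 kb, and with 500 bp the gene had no reproducible summit. eIF2Bdelta had 252.8, 155.6 and 106.9, with a start of another gene 6 bp from the summit. eIF2Bepsilon had a pooled signal of 45.35, and eIF2Balpha and eIF2Bgamma had no pooled summit. Read by the nearest start alone, no eIF2B gene kept a reproducible summit.

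eIF3, the large scaffold that holds the small subunit and the mRNA, had a reproducible summit at 6 of its 16 genes (37.5%, 18.5 to 61.4%; background 27.9%). Their median signal of 344.7 was close to the 329.6 of other genes. Another 2, eIF3g1 and eIF3g2, had a pooled summit only. All 6 are among the 10 subunit genes outside the numbered paralogue sets. eIF3h had 946.4 in the pooled list, 506.1 in replicate 1 and 427.1 in replicate 3, with a summit 7 bp from a TSS. eIF3a, the largest core subunit, had 765.1, 502.0 and 257.1 at 18 bp upstream. The loosely bound subunit eIF3j had 355.3, 208.3 and 143.8, and the core subunit eIF3c had 334.1, 214.8 and 125.3. eIF3m followed with 295.3, 190.3 and 124.4. eIF3b, another core subunit, had the lowest reproducible signal of all 21 genes. It had 206.8, 115.0 and 92.36 at a summit 49 bp from the TSS of Patronin and 613 bp from its own, with a second summit of 185.6 at 18 bp downstream of its own TSS. The genes eIF3e, eIF3i, eIF3k and eIF3l had no summit in either list, and the nearest pooled summit to eIF3e lay 11903 bp away. Subunits of the same complex ranged from a signal of 946.4 to no listed promoter summit.

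Among the eIF4 factors, which bind the cap and unwind the leader, 3 of 13 genes had a reproducible summit (23.1%, 8.18 to 50.3%), near the background of 27.9%. eIF4EHP, a cap-binding protein that represses translation, had 2214 in the pooled list, 1258 in replicate 1 and 951.6 in replicate 3, at ranks 31, 34 and 29. The summit lay 222 bp upstream of its TSS and 154 bp from the TSS of CG18428. A further 6 reproducible summits of 185.6 to 271.0 lay inside the gene, 2531 to 17126 bp from its start, and for each of them the nearest TSS was that of Syx1A. The helicase gene eIF4A had 325.2, 171.6 and 137.9, and 3 reproducible summits within 1 kb of its starts, the others with 270.5 and 220.1. The summit of 270.5 lay 810 bp upstream of the nearest eIF4A TSS. It was nearer to the start of chic, 746 bp upstream on the opposite strand. No other of the 51 genes had 3, and the share of all genes with 3 is not given here. eIF4H1, a helicase cofactor gene, had 218.3, 142.9 and 90.63. The scaffold gene eIF4G1 on chromosome 4 had 170.6, 103.8 and 57.83 and the cap-binding gene eIF4E1 had 163.1, 101.8 and 63.16. Both were just below the reproducible list.

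Late factors completed the set. eIF6, which keeps the ribosomal subunits apart, had 1860 in the pooled list, 1096 in replicate 1 and 774.3 in replicate 3, at 102 bp upstream of its TSS. eIF5B, which joins the subunits, had 223.2 and 169.9 in the pooled and replicate 1 lists but 65.92 in replicate 3. Its rank was 3000 in replicate 1 and 8030 in replicate 3, and it was the only member of the 21 with a rank beyond 5744 in a replicate. Inside this long gene 3 further reproducible summits of 203.3 to 430.6 lay over 23 kb from its start, and for each of them the nearest TSS was that of sty. eIF5, the GTPase-activating factor, had 119.7, 72.53 and 49.22.

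**Figure D4:**
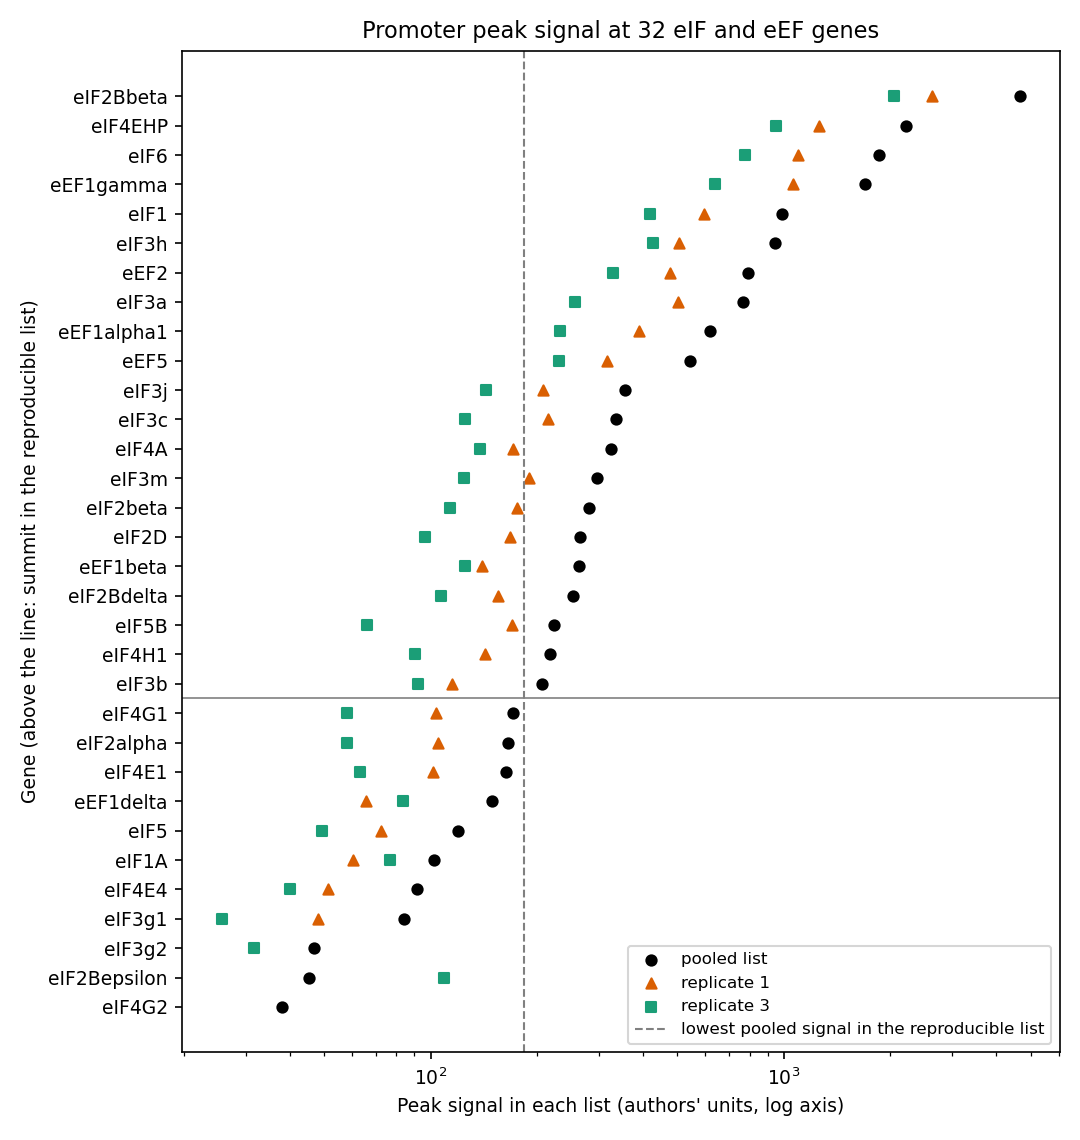
Signal of the strongest promoter peak (horizontal, log axis, authors' units) in the pooled list and of the strongest overlapping peak in each replicate for 32 genes (rows); the lists were not scaled to each other, the dashed line marks 183.6 in the pooled list, and the horizontal line separates genes with a reproducible summit from the rest. Signals in the pooled list run from 37.95 at eIF4G2 to 4660 at eIF2Bbeta.

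Numbered paralogue sets held 18 of the 51 genes. A set was defined as symbols that share a stem longer than eIF or eEF plus a digit and differ only in the final digit, which gave eEF1alpha, eIF3d, eIF3f, eIF3g, eIF4E, eIF4G and eIF4H. Of the 11 higher-numbered copies, 0 had a reproducible summit, which allows a share of up to 25.9% by the Wilson interval. Of the 7 first-numbered copies 2 had one (28.6%, 8.22 to 64.1%), eEF1alpha1 and eIF4H1, and of the 33 other genes 19 had one (57.6%, 40.8 to 72.8%). The definition leaves the cap-binding gene eIF4EHP, with a reproducible signal of 2214, outside the eIF4E set and among the 33. In the pooled list the counts were 3 of 11, 5 of 7 and 24 of 33. The background shares are 27.9% and 48.3%. A set shares its ancestry, so its genes are not independent observations, and the difference was not tested. The 3 groups also differed in their neighbours. Another gene started on the opposite strand within 1 kb upstream at 27.3% of the 11, 28.6% of the 7 and 60.6% of the 33. Among other protein-coding genes, 43.8% with such a neighbour and 18.8% without one had a reproducible summit.

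In the pooled list the first copy had the higher or the only signal in each set except eIF3d and eIF3f, where neither copy had one. At eIF3g the order was the other way in replicate 3. In the pooled list eIF3g2 had 46.78, against 84.04 for eIF3g1, and its summit lay 878 bp from the TSS and nearer to Tmlh. eIF3g2 had no peak in replicate 1 and 31.70 in replicate 3, and eIF3g1 had 47.85 in replicate 1 and 25.70 in replicate 3. eIF4G2 had 37.95 in the pooled list and no overlapping peak in either replicate, against 170.6 for eIF4G1. In the eIF4E set, eIF4E4 had 91.53, 51.10 and 40.02 at 269 bp upstream of its TSS. eIF4E3, eIF4E5, eIF4E6 and eIF4E7 had no summit within 1 kb in any list. The same was true of eIF4H2 and eEF1alpha2, whose first copies had 218.3 and 617.7. The nearest reproducible summit to eIF3d1 lay at 1294 bp.

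The reproducible list's lower end ran through the middle of the factor genes. Just inside it stood eIF3b (206.8) and eIF4H1 (218.3), and just outside it eIF4G1 (170.6), eIF2alpha (165.7) and eIF4E1 (163.1). In all 21 genes both replicates had a peak overlapping the reproducible one. For 20 of the 21 that peak was among the 5744 strongest of each replicate. Across these 21 genes the signals in the replicates had a Spearman rho of 0.939, given as a description, since some peaks are shared with neighbouring genes and all come from the same libraries. The IDR list keeps peaks on which these replicates agree, so the selection itself favoured overlap, high ranks in both and a high rho. These values therefore do not measure agreement at unselected genes. The ratio of replicate 1 to replicate 3 ranged from 1.12 to 2.58 with a median of 1.45, in lists that were not scaled to each other.

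**Figure D5:**
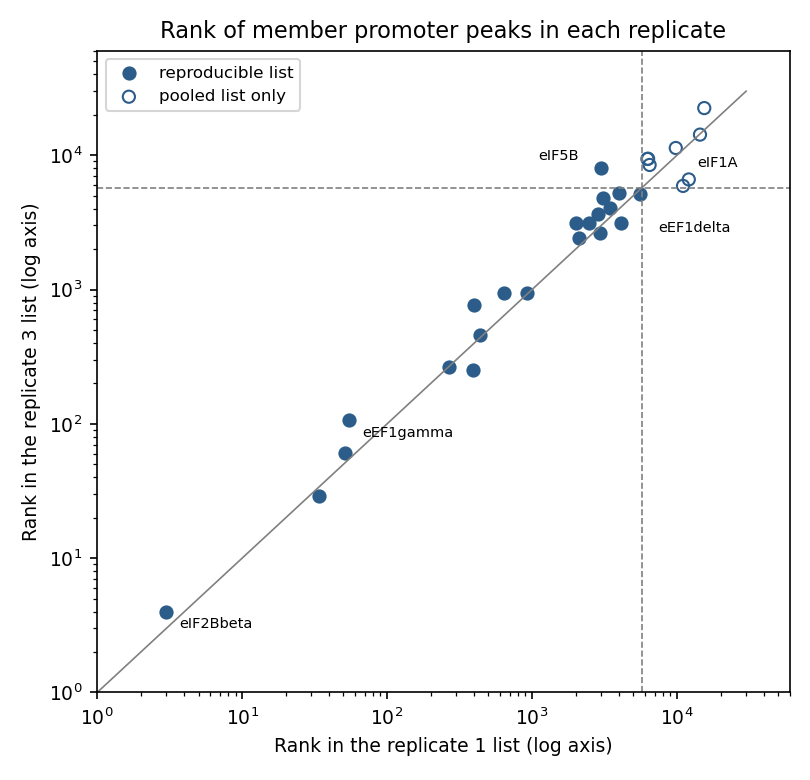
Rank of the member promoter peak in replicate 1 (horizontal) and replicate 3 (vertical), both log axes, where 1 is the strongest of 30000 peaks; filled points have a reproducible summit, open points a pooled summit only, the dashed lines mark rank 5744 and the solid line equal ranks. eIF5B lies above the dashed line in replicate 3 at rank 8030.

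A few of the 30 genes without a reproducible summit had a strong peak in 1 replicate. eIF2A, a factor of alternative initiation, had a replicate 1 signal of 300.1 at rank 1028, 52 bp upstream of a TSS, and no summit within 1 kb in replicate 3 or in the pooled list. eIF2gamma had a replicate 3 signal of 137.4 at rank 2632, also 52 bp upstream, and none in the others. eIF2Bepsilon had a replicate 3 signal of 109.3 at rank 3898 and no peak in replicate 1. Of the 5744 strongest peaks, 114 in replicate 1 (1.98%) and 141 in replicate 3 (2.45%) overlapped no pooled peak. At these 3 genes the replicates disagreed, and the reproducible list counts none of them. Among the 5744 strongest peaks of each replicate, 22 of the 51 genes had a summit in replicate 1 (background 27.6%) and 23 in replicate 3 (background 28.8%), and 20 had one in both (background 24.0%).

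eIF4B, a helicase cofactor gene, lies at 3L 27842669 to 27858271. The last summit on 3L in any of the lists was at 23095423, which leaves 5.01 Mb without any listed peak. The nearest pooled summit to eIF4B was 4967227 bp away. Of all protein-coding genes, 129 lie over 1 kb beyond the first or last listed summit of their arm, and eIF4B was the only one of the 51 among them. The lack of a peak at eIF4B cannot be told apart from the lack of listed peaks in the whole stretch.

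Of the 21 genes with a reproducible summit, 14 had the start of another protein-coding gene within 1 kb of it (66.7%), where 56.5% of all genes with such a summit did. For 5 of the 21 that start was nearer (23.8%; background 27.9%), namely at eIF2Bbeta, eIF4EHP, eIF1, eIF2Bdelta and eIF3b. eIF1 and eIF3b kept a weaker summit of their own, so 18 genes remained when a summit was given only to the nearest start, where 21.2% of all genes remained. Of the 51 genes, 25 had another gene starting on the opposite strand within 1 kb upstream (49.0%; background 36.2%). A reproducible summit was present at 15 of these 25 (60%, 40.7 to 76.6%) and at 6 of the 26 without such a neighbour (23.1%, 11 to 42.1%). The other protein-coding genes showed the same order, with 43.8% of 5027 and 18.8% of 8867. By construction a summit between such starts counts for both genes.

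A pyrimidine word near the start was present in some of these genes with and without a peak. TCTTT or CCTTT, parts of the TCT initiator, lay within 10 bp of an annotated TSS on the gene strand in 10 of the 51 genes, or 19.6%, with 5.02% of all protein-coding genes as background and 68 of 92 ribosomal protein genes (73.9%). They were found in 4 of the 7 elongation factor genes and 6 of the 44 initiation factor genes. For 8 of them the start is printed to show the word, from 12 bp before the TSS to 17 bp after it, with the word in capitals.
eEF2 chr2L:21682099-21682128 minus strand: gctgcagcgcctcgcTCTTTcctgtcgaaa
eIF4A chr2L:5981752-5981781 plus strand: ttgcaagatggagccTCTTTtgcttggttt
eEF1delta chr2L:10232495-10232524 plus strand: tcCCTTTcaaacgtgttatcgtattgttca
eEF1alpha2 chr3R:31739648-31739677 plus strand: gaggatatacacggcagTCTTTaaccaaca
eIF3d1 chr3R:23680027-23680056 plus strand: tttTCTTTggcggtggtatatttcaacgcg
eIF3f1 chr3R:4714165-4714194 minus strand: gcactatcgataggcCCTTTtcttgcatcc
eIF3g1 chrX:2610319-2610348 minus strand: accgcggcagggtaacacTCTTTtgttgct
eIF3i chr2L:4967758-4967787 minus strand: gccacggtcacactgcTCTTTtggcgtgta
eEF2 and eIF4A have a reproducible summit and the other 6 do not. The word began 3 to 6 bp downstream of the printed TSS, except at eIF3d1 (9 bp upstream) and eEF1delta (10 bp upstream). At none of the 8 did it include the TSS base itself. Over all 51 genes, a reproducible summit was present at 4 of the 10 with the word (40%) and at 17 of the 41 without it (41.5%). Over all protein-coding genes the shares were 42.7% with the word and 27.1% without it, and for ribosomal protein genes 86.8% and 66.7%. Whether the factors differ from all genes in this was not tested.

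TATCGATA around the start, searched after values were seen, was likewise present in both classes. It lay within 100 bp of a TSS, on either strand, in 13 of the 51 genes (25.5%; background 8.49%), and in 5 of the 21 with a reproducible summit and 8 of the 30 without one (23.8% and 26.7%). For the other protein-coding genes these shares were 12.6% and 6.81%. Genes with the word and no reproducible summit are illustrated by the subunit genes eIF2alpha, eIF2gamma and eIF3l and by eIF2A, with the word in capitals.
eIF2alpha chrX:16446988-16447017 minus strand: acgcaattaaaTATCGATAacaccactgtc
eIF2gamma chr3R:15263449-15263478 minus strand: gattagagcacTATCGATAggcattgtcgg
eIF2A chr3L:21824865-21824894 plus strand: ttactatcgctTATCGATAcaccgcgtaca
eIF3l chr3L:12146097-12146126 minus strand: agtagtatcatTATCGATAgttggtcacac
The initiator word TCAGT (gene strand, within 10 bp of a TSS) was found in 2 of the 51 genes, eEF1alpha2 and eIF2gamma (background 16.6%). TATAAA, 20 to 40 bp upstream, was found in 1, eIF4E7 (background 8.48%). Also searched after values were seen, within 100 bp of a TSS on either strand, CACGTG was found in 5 of the 51 genes (background 3.69%), CACGCG in 5 (background 8.19%) and GGTCACACT in 4 (background 5.85%). A match is a description of the letters and not a measured site.

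The share of 41.2% for the translation factors lay between those of ribosomal protein genes and tRNA synthetase genes, and these differences were not tested. Of the factors' reproducible summits 12 of 21 (57.1%) lay within 100 bp of a TSS, against 94.7% for cytosolic ribosomal protein genes, of which 75 of 92 had one (81.5%) with a median signal of 777.9. Aminoacyl-tRNA synthetase genes, which charge tRNAs, had 10 of 33 (30.3%) and a median of 325.6. Unlike the ribosomal protein list, this list also includes mitochondrial synthetase genes, which were not separated. Of 21 other cytosolic translation genes 14 had one (66.7%, 45.4 to 82.8%), read against the same background of 27.9%. The highest were Lk6, a kinase of eIF4E (2838 in the pooled list, 1546 in replicate 1, 1283 in replicate 3), and pAbp, the poly(A)-binding protein gene (701.5, 376.5 and 336.2). Thor, the eIF4E-binding repressor, had 594.0, 304.9 and 285.7, kra had 483.8, 266.8 and 214.9, and pix, the ribosome recycling ATPase gene, had 419.2, 295.1 and 127.1. The Lk6 summit lay 961 bp upstream of its TSS. Of 9 mitochondrial translation factor genes only mEFG1 had a reproducible summit (232.2, with 123.6 and 109.0), while mEFTu1 (121.1, 55.94 and 69.68) and mRRF1 (58.14, 24.39 and 33.09) had a pooled one and the other 6 had none.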

How the data were processed

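The 4 peak lists in narrowPeak format are on dm6. According to the deposited file descriptions, the authors derived each replicate's list from its alignment and a control, the pooled list from both alignments and that control, and the IDR list from these 3. The control was not analysed here. The deposited signal is the authors' value per peak on an unstated scale, with no common scaling between lists. The authors' deposited −log10 q-value was 4.09 for every peak of the IDR list and was not used. For the aligner, caller and IDR cut-off, no name or value is given in the sources used here. Sonicated fragments were 200 to 800 bp, per the labels.

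The summit was the peak start plus the deposited offset, set to the last base where it lay beyond the peak (4 IDR and 12 pooled peaks). Starts came from all transcripts of protein-coding genes in Ensembl release 115 (19607 positions). Sequence came from the RefSeq copy of dm6, in which 99.5% of first coding positions read ATG. Each gene took its strongest summit within 1000 bp, and a replicate's value is its strongest peak overlapping that peak by at least 1 bp. Sequence of the 12 genes on 2R is not shown. Linking was tested on simulated data. Python 3.11.15 with pandas 2.3.3, SciPy 1.17.1 and Biopython 1.88 was used. Values per replicate are given for every elongation factor, the 20 initiation factors of highest pooled signal and all numbered paralogues, and for the 5 highest other cytosolic translation genes and the 3 mitochondrial ones with a summit; ribosomal protein and tRNA synthetase genes are given as lists only. Tor, listed among the pathway genes, was not matched. No test was made, since 1 group of 2 replicates holds no contrast. Members, lists and words were chosen with earlier results of these data known, and words within 100 bp of a TSS were added after values were seen. Alternatives varied the window, peak merging, TSS choice, gene assignment, list and replicates.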

Additional observations from a re-analysis of the deposited data

How the results depend on the processing

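Under 10 alternatives the count of eIF and eEF genes with a summit in the list used ranged from 14 to 25 around the reported 21. With only the 2872 strongest IDR peaks it was 14 (16.9% of all genes), and the share of initiation factors was 22.7% instead of 36.4%, below the lower bound of its interval. This list is shorter by construction. With a window of 2000 bp it was 25 (33.0% of all genes), with eEF1delta, eIF2Bgamma, eIF2alpha and eIF3d1 added. With the nearest TSS only it was 18 (21.2% of all genes). A single replicate has no IDR list, so leaving a replicate out changed the list. The strongest peaks of the other replicate were used, as many as the IDR list holds. These counts repeat the single-replicate counts given above and do not show which summits are reproducible. Leaving out replicate 1 gave 23 genes (28.8% of all genes), with eIF5B lost and eIF1A, eIF2Bepsilon and eIF2gamma added. Leaving out replicate 3 gave 22 (27.6% of all genes), with eIF2A added. Elongation factors stayed between 57.1% (16.9% of all genes) and 85.7% (33.0% of all genes), and duplicated paralogues, the higher-numbered copies, at 0% in all 10. The median signal ranged from 344.7 to 779.6, the highest with the stricter list. The pooled count ranged from 27 to 35 under 7 alternatives around 32. It was 27 with the nearest TSS only (41.2% of all genes) and 35 with 2000 bp (54.1% of all genes). With a replicate left out, the whole list of the other stood in for the pooled list. That gave 33 without replicate 1 (50.3% of all genes) and 30 without replicate 3 (49.1% of all genes). No paired analysis was possible because there is only 1 group. Depth is unknown and cannot be weighed.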
